A study of Homo sapiens with 17 samples.

Results

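Antisense sites within coding gene bodies are genomic positions where engaged RNA polymerase was recorded on the strand opposite a protein-coding gene. A site belonged to the class when it lay inside a GENCODE release 29 coding gene of the opposite strand on chromosomes 1 to 22 and outside every annotated gene of its own strand. It also had to be more than 1000 bp from any annotated transcript start on either strand and more than 5000 bp past any gene end on its own strand. The rule found 2166 distinct positions among the 158141 of the study. Pausing times were measured in HEK293, an established cell line of human embryonic kidney origin, by time-variant precision run-on sequencing, in which polymerases of permeabilised cells extend their RNA for a set time and the RNA 3′ ends mark their positions. Run-on lasted 0.5, 2, 8 or 32 min, either with sarkosyl, a detergent that removes much of the protein bound to DNA but leaves engaged polymerases able to elongate, or without it. Each combination had 2 replicates, giving 16 libraries, and the deposited values are 4 tables, called series here, 1 per buffer and replicate. Antisense sites numbered 691 (replicate 1) and 616 (replicate 2) with sarkosyl, against 970 and 593 without it.

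RNA polymerase II transcribes both strands of much of the genome. Antisense transcription inside genes can come from divergent initiation at promoters, from enhancers and unannotated RNA genes in introns, or from polymerases that continue past the end of a neighbouring gene before they terminate. Such polymerases run along the same DNA as those that transcribe the host gene in the sense direction, and most of the RNA they make is unstable, so run-on assays detect them better than sequencing of mature RNA. A pausing time is how long a polymerase dwells at a position; the deposited time is the reciprocal of a fitted rate, and its unit was not stated. How many reads support a site is not known.

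Of 2166 antisense positions, 151 were listed in at least 3 of the 4 series, and the bases around 8 of these are shown, which are recurrent sites with 14 bases on each side inside an annotated exon, read from GENCODE transcripts on GRCh38. Each runs 5′ to 3′ on the strand of the antisense site, with the site in capitals.
DNMT3A, chr2:25228232-25228260 (+): aaaaaaaaaaaaaaAaaaaaatacagtgg
HES7, chr17:8121001-8121029 (+): ccaccagagtcgatTttatttcaattttt
LSR, chr19:35264299-35264327 (-): atagagttaggtccCtctctctctgtctt
PHLDB3, chr19:43475504-43475532 (+): tcgtaggttttgacGcagaaggtcaggcg
PRR12, chr19:49593333-49593361 (-): cggggtgcgaggtcCtggagctgccataa
RABGAP1L, chr1:174990708-174990736 (-): ggaactcacaagtcCtatgtggcattctt
RMND1, chr6:151405802-151405830 (+): agttccatgcagtgCtgaagtttttcatt
RMND1, chr6:151408734-151408762 (+): atgatacaatatgaGgattccacaggcct
The site in DNMT3A, which encodes a DNA methyltransferase, stood within a run of A and had times of 1.09 and 0.974 with sarkosyl against 2.40 and 1.01 without it. The site in HES7, a transcriptional repressor of the segmentation clock, had 4.52 and 2.92 with sarkosyl against 0.385 and 2.02 without it. This site, at 8121015, was close to another antisense site of HES7, 8120992, that lay inside the transfer RNA gene TRR-TCT2-1. The site in LSR, which encodes a lipoprotein receptor, had 2.36 and 3.07 with sarkosyl against 1.07 and 0.286 without it. DNMT3A thus had its longest time in a series without sarkosyl, while both HES7 and LSR were longer in both sarkosyl series than in either series without it. A window of 61 bases inside 1 exon was found for 290 of the 2166 positions, or 13.4%, so no property of bases could be checked for the class as a whole. Within those 290 windows the site itself was C in 60.7%, G in 34.5%, A in 3.79% and T in 1.03%, against 56.0%, 42.6%, 0.471% and 0.941% in the 425 windows of sense intron sites.

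Antisense sites were sparse and unevenly spread along coding genes. The strand opposite coding genes that met the distance rules covered 994 Mb and held 2.18 distinct positions per Mb, against 31.3 per Mb for sites in introns on the sense strand and 2.93 per Mb for intergenic sites, both chosen with the same distance rules. Per series, the antisense density was 0.695 and 0.620 sites per Mb with sarkosyl and 0.976 and 0.597 without it. Sense introns held 5.39, 7.07, 14.6 and 8.43 sites per Mb in the same order, so every series listed fewer antisense than sense sites per Mb. Antisense sites made up 1.50% and 1.37% of all sites on chromosomes 1 to 22 with sarkosyl, against 1.56% and 1.53% without it.

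Nearly as many antisense positions lay beyond the end of another gene as elsewhere. Of the 2166 positions, 1004 (46.4%) were 5 to 20 kb past the end of a gene on their own strand, a stretch in which polymerases that have passed a gene end can still be found. The gene that ended could be of any annotated type, and whether it was itself transcribed was not tested. That stretch covered 131 Mb, and its density was 7.64 positions per Mb, against 1.35 per Mb over the other 862 Mb. In single series the density past gene ends was 1.83 and 1.95 per Mb with sarkosyl and 3.39 and 1.99 without it, and beyond it 0.523, 0.418, 0.609 and 0.385, so the denser stretch was the same in all 4. That stretch held 34.7%, 41.6%, 45.9% and 44.0% of the antisense sites of a series, in the same order. Intergenic sites had higher shares there in every series, at 45.0%, 48.2%, 48.9% and 49.1%. Sense intron sites had lower ones, at 27.2%, 24.4%, 18.8% and 18.6%. A further 360 positions (16.6%) lay 1 to 10 kb upstream of a coding start of the opposite strand, where divergent transcription would run, and 802 (37.0%) were in neither place. Positions in both places were counted only as past a gene end, so the 360 are not all that lay upstream of a coding start. Within the host gene, 1840 positions were in introns and 326 (15.1%) in exons. Among the 2097 positions inside 1 coding gene only, the last of 5 equal parts of the host held 34.8% of positions but 18.4% of the bases that met the rules. The first part held 21.5% of positions and 19.6% of such bases, and the third 13.6% and 20.8%.

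**Figure D1:**
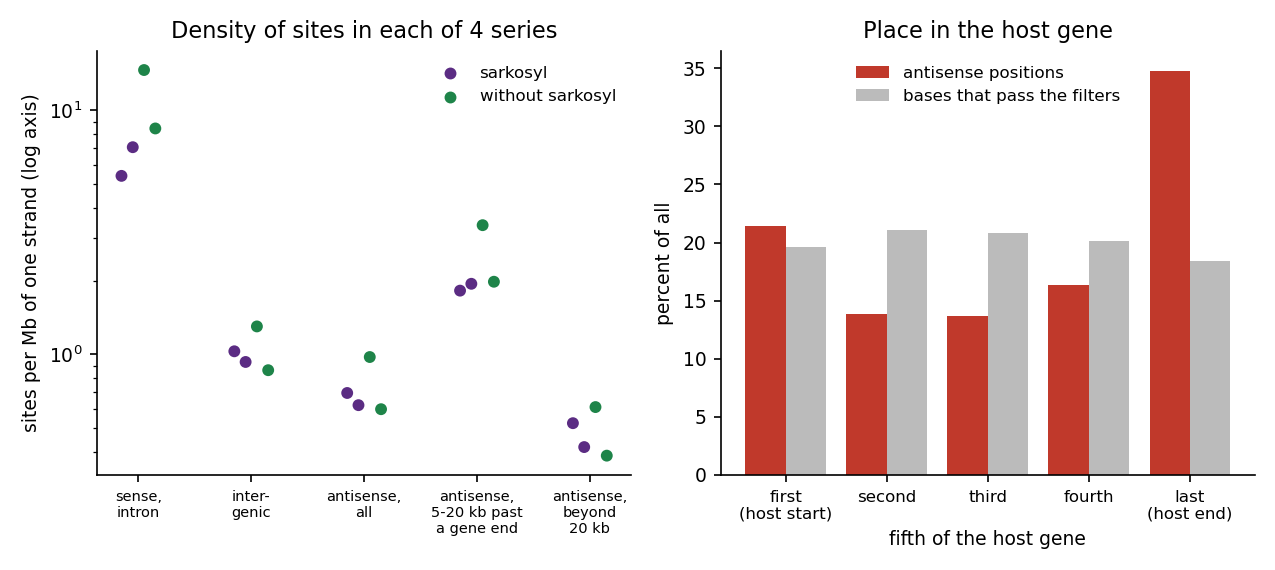
Left, sites per Mb of the strand that meets the distance rules (log axis), 1 point per series, for 2 comparison classes and for antisense sites in all and split by distance past a gene end. Right, percent of antisense positions and of bases that met the rules in 5 equal parts of the host gene; the part at the host's end holds 34.8% of positions and 18.4% of bases.

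The 2166 positions fell in 1077 coding genes, 5.66% of the 19019 on these chromosomes. Hosts had a median length of 75.3 kb, against 27.6 kb for all coding genes, and 71.2% of hosts had a sense site in at least 1 series, against 57.7% of all coding genes. Of 1041 hosts or overlapping host combinations, 637 held 1 position and 17 held at least 10. Chromosome 19, rich in zinc finger genes, carried 12.3% of antisense positions and 8.95% of all positions on chromosomes 1 to 22.

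The hosts with most positions held them in short stretches. ZNF235, a zinc finger gene on chromosome 19, had 40 positions on the plus strand between 44242328 and 44254687, all of them 5060 to 17419 bp past the end of its neighbour ZNF227. Its median times were 2.08 and 3.70 with sarkosyl against 6.19 and 4.57 without it. RMND1, which encodes a protein of mitochondrial translation, had 30 positions within 5062 bp at its own 3′ end, on the plus strand of chromosome 6 between 151404807 and 151409869. None of them was in the 20 kb past a gene end, and their medians were 2.24 and 1.99 with sarkosyl against 2.91 and 9.82 without it. LSR had 30 positions over 7943 bp of the minus strand of chromosome 19, with medians of 2.00 and 1.82 with sarkosyl against 7.04 and 10.7 without it. In ZNF235, RMND1 and LSR both medians without sarkosyl were above both medians with it, as was so for the medians over all sites of the tables.

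Some hosts carried narrow clusters. UNC45B, a chaperone of muscle myosin with no sense site in any series, had 15 positions within 133 bp on the minus strand of chromosome 17, between 35151093 and 35151226. All 15 lay 13017 to 13150 bp past the end of the gene AC022916.4. Long and short times both occurred within these 133 bp. With sarkosyl, position 35151220 had 111 and 7.04, and position 35151109, nearer the other end of the cluster, had 0.434 and 0.789. Without sarkosyl these positions did not keep that order, since 35151220 had 0.404 in the 1 series that listed it and 35151109 had 1.40 and 0.590. PTPRS, a receptor tyrosine phosphatase, had 15 positions within 508 bp on the plus strand of chromosome 19, with medians of 1.30 and 1.05 with sarkosyl against 1.02 and 0.588 without it. All 15 of the PTPRS positions lay 14358 to 14866 bp past the end of the gene AC005790.1. SIPA1L3, a member of a family of Rap GTPase activators, had 15 within 1323 bp, with medians of 2.41 and 1.38 with sarkosyl. Only 4 and 2 of these SIPA1L3 positions were listed without sarkosyl. ERC1, a scaffold of secretory vesicle docking, had 18 positions over 10558 bp, and ZFP30, a KRAB zinc finger gene, had 15 over 7258 bp. POM121L2, a relative of the nuclear pore gene POM121, had 14 over 7428 bp, and ARHGAP30 had 13 over 6632 bp, all 13 past a gene end.

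**Figure D2:**
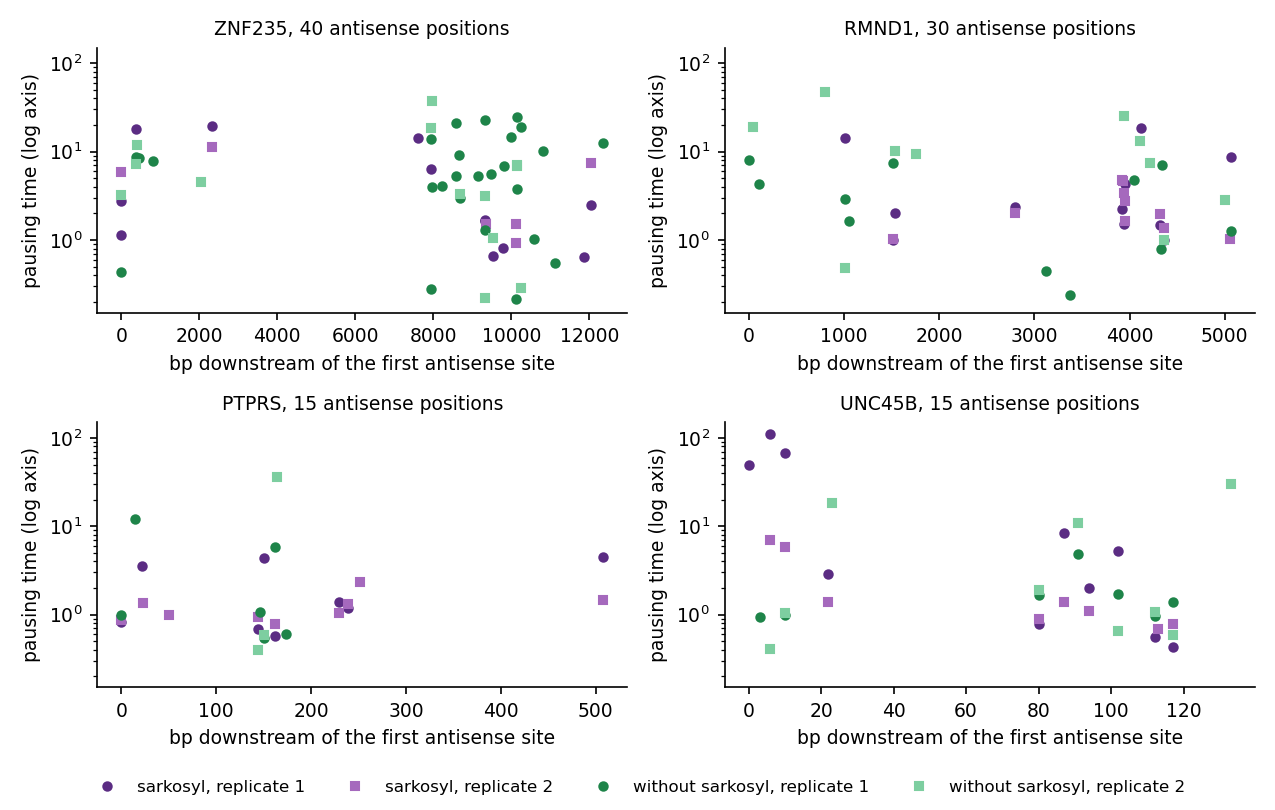
Pausing time (log axis, unit not stated) of each antisense site in 4 host genes against its distance in bp downstream of the first antisense site on its strand, with 1 symbol per series. ZNF235 and RMND1 hold sites over 12359 and 5062 bp, and PTPRS and UNC45B hold 15 positions each within 508 and 133 bp.

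Genes of 2 functional lists were hosts as follows. Of 43 chromatin regulators 8 were hosts, and of 43 developmental transcription factors 8. This is 18.6% of each list, beside 5.66% of all coding genes; the listed genes are longer, with median lengths of 119 and 103 kb against 27.6 kb, and the part of length in these shares was not tested. ARID1A, a subunit of the BAF chromatin remodeller, led its list with 8 positions, with medians of 0.881 and 1.73 with sarkosyl. Only 2 of the 8 were listed without sarkosyl. Position 26698092 had 0.366 and 5.92 there, against 0.876 and 1.87 with sarkosyl. Position 26698099 had 43.5 and 66.7 without sarkosyl and was not listed with it. DNMT3A followed with 4 positions. Among the transcription factors, RUNX1 had 3 positions with times between 0.557 and 0.885 in the 4 series, and TEAD1 had 2. As a check of the cell line, 9 of 12 genes known from HEK293 had a sense site, with HOXC10, LHX1 and PAX2 at 0, against 2 of 12 blood genes, which had at most 1 site.

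Part of the antisense sites lay in genes that RefSeq lists on the same strand and GENCODE release 29 does not. Of the 2166 positions, 147 (6.79%) were inside 70 such RefSeq genes of GRCh38.p14, and 8 were within 100 bp downstream of a RefSeq start. Those 8 include 5 positions 53 to 79 bp after the start of LOC105370034, inside MORN3 on chromosome 12. Its RefSeq promoter window, chr12:121663874-121664173 on the plus strand, runs from 250 bases before to 50 after that start and so ends just before the first of the 5 sites. It is shown with the window of LOC124907881, chr2:120737612-120737911 on the minus strand, inside the Hedgehog transcription factor gene GLI2, whose antisense site 35 bp after the start is in capitals.
LOC105370034: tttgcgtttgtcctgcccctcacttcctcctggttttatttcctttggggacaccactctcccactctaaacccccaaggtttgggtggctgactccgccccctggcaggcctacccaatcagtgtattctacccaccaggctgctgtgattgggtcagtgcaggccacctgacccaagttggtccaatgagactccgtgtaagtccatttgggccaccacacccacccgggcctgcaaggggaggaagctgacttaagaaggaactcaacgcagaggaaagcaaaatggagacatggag
LOC124907881: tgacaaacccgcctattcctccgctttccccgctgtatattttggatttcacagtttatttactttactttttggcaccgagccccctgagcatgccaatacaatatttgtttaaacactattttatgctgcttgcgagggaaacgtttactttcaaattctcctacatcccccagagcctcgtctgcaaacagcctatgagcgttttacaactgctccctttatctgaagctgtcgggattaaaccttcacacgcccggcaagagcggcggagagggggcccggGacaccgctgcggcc
Both windows were searched on both strands for 8 short motifs: the B box of tRNA genes as GGTTCGA, the TATA box as TATAAA, the polyadenylation signal as AATAAA, the AP-1 site as TGANTCA, the CRE as TGACGTCA, the NRF1 site as GCGCATGC, the YY1 core as AAGATGGCG and the CTCF core as AGGGGGCGC. AATAAA was the 1 motif found in either. In both windows it was on the strand opposite the one shown, and so reads as TTTATT. Of the 35116 RefSeq promoter windows, 17.4% hold it on either strand. The MORN3 sites had 0.846, 0.787, 1.16 and 0.864 in sarkosyl replicate 1, 1.94 in sarkosyl replicate 2 and 6.62 in replicate 1 without sarkosyl. The GLI2 site had 1.12 in replicate 1 without sarkosyl and was listed in no other series.

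Some of the shortest times lay in transfer RNA genes, which RNA polymerase III transcribes. Inside 6 RefSeq tRNA genes there were 11 positions, in POM121L2, ZBED9, VAC14 and HES7; the table used gives no strand for these tRNA genes. In POM121L2, a site in TRS-GCT2-1 at position 27298066 of chromosome 6 had 0.544 and 0.714 with sarkosyl and 0.241 in replicate 2 without it. A second site of that gene, 27298027, had 0.463 in sarkosyl replicate 1 and 0.262 in replicate 2 without sarkosyl. In ZBED9, position 28607215 in TRA-AGC3-1 had 0.672 in sarkosyl replicate 2 and 0.324 in replicate 1 without sarkosyl. Of the 11, the exceptions above 1 were both in TRQ-CTG5-1, at 23.8 and 1.34 in replicate 1 without sarkosyl.

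The median pausing time of antisense sites was below that of sense intron sites in each of the 4 series. It was 1.36 and 1.26 with sarkosyl against 2.03 and 5.75 without it, and the median of sense intron sites was 1.68, 1.51, 2.38 and 10.3 in the same order. On the log2 scale the antisense minus sense difference of medians was -0.29 ± 0.04 (SD, n = 2 series) with sarkosyl and -0.54 ± 0.43 (SD, n = 2) without it. The sign was the same in 4 of 4 series, with an exact two-sided sign-flip test p = 0.125, which is the smallest p that 4 series allow; adjusted over the 19 contrasts of this kind it was 0.183. The quartiles overlapped widely: antisense times ran from 0.829 to 3.47 between the quartiles of sarkosyl replicate 1 and sense intron times from 0.987 to 3.82. Inside the hosts that held both kinds of site the median difference was -0.25 and -0.19 with sarkosyl against -0.01 and -0.16 without it, over 115 to 235 hosts, so within a host the gap was smaller. Antisense sites had the shorter median in 58.3% and 58.3% of these hosts with sarkosyl and in 50.2% and 53.4% without it. With sites over 5000 bp from starts in both classes, p was 0.25 since 1 of the 4 series changed sign. With the more certain sites, those with the narrower quartile range of the rate, the mean over the 4 series was -0.14 in place of -0.41, with -0.065 and -0.069 in the sarkosyl series.

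Against the other noncoding classes the differences were smaller or uneven. Antisense minus intergenic medians were 0.01 and 0.04 with sarkosyl against 0.55 and 0.34 without it (log2; exact sign-flip p = 0.125, adjusted 0.183). With isolated sites only, p was 0.75 and the mean over series 0.04. Antisense minus promoter antisense medians, the latter being sites within 1000 bp upstream of a coding start on the opposite strand, were 0.08 and -0.02 with sarkosyl against 0.25 and -0.26 without it, an inconstant sign with exact p = 1. Sites just inside and just outside the distances of the rule compare as follows. At 1001 to 1500 bp from a start the medians were 1.37, 1.42, 1.12 and 5.21, and at 501 to 1000 bp 1.24, 1.27, 1.34 and 5.83. At 5001 to 6000 bp past a gene end they were 1.65, 1.80, 2.67 and 10.5, and at 4001 to 5000 bp 1.77, 1.58, 3.04 and 7.81.

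**Figure D3:**
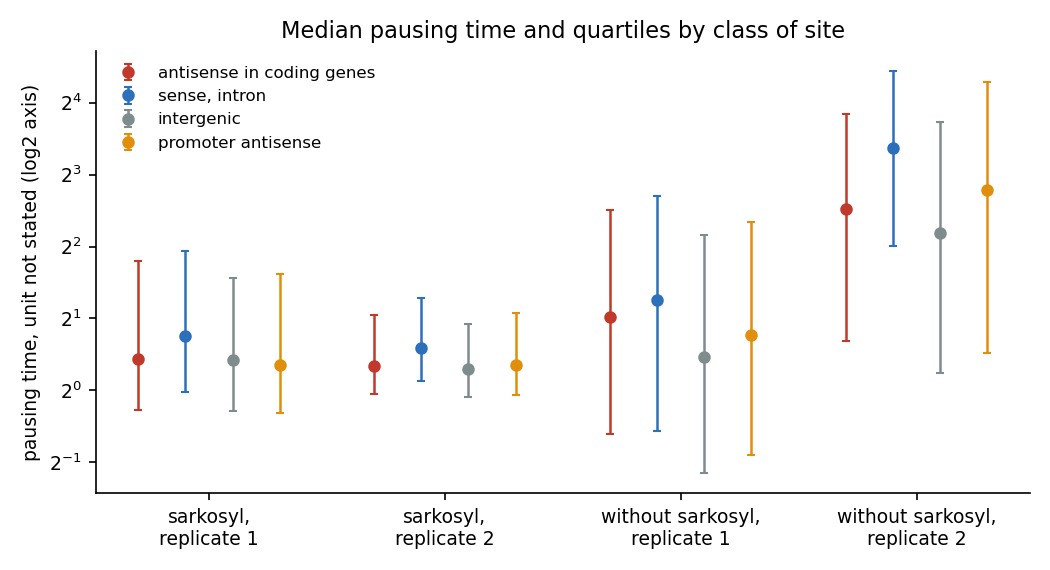
Median pausing time with the lower and upper quartile (bars) over the sites of each class, for the 4 series, on a log2 axis with the unit not stated. Antisense medians lie below the sense intron medians in all 4 series, and the quartile ranges overlap.

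Of 3 groups by place, sites beyond a gene end had the highest medians in all 4 series. Their medians were 1.48 and 1.36 with sarkosyl against 2.32 and 8.40 without it. Sites upstream of a coding start and not past a gene end had 1.43, 1.27, 1.87 and 4.19, and sites in neither place 1.24, 1.16, 1.86 and 4.47. Sites 5 to 20 kb past a gene end exceeded all other antisense sites by 0.21 ± 0.01 (log2, SD, n = 2 series) with sarkosyl and by 0.61 ± 0.42 (SD, n = 2) without it, in 4 of 4 series (exact sign-flip p = 0.125, adjusted 0.183). This comparison was chosen after the values were seen. With only the sites found in both replicates, the sign changed in sarkosyl-free replicate 2 (-0.20; exact p = 0.25). Without sarkosyl-free replicate 2 the mean over series was 0.27 in place of 0.41. With sites 5 to 20 kb past a gene end left out of both classes, the antisense minus sense intron difference was -0.59 as a mean over series. It was -0.41 with them. Exon and intron sites of the host differed by 0.19 and 0.28 with sarkosyl and by -0.22 and 0.67 without it, with exact p = 0.375.

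**Figure D4:**
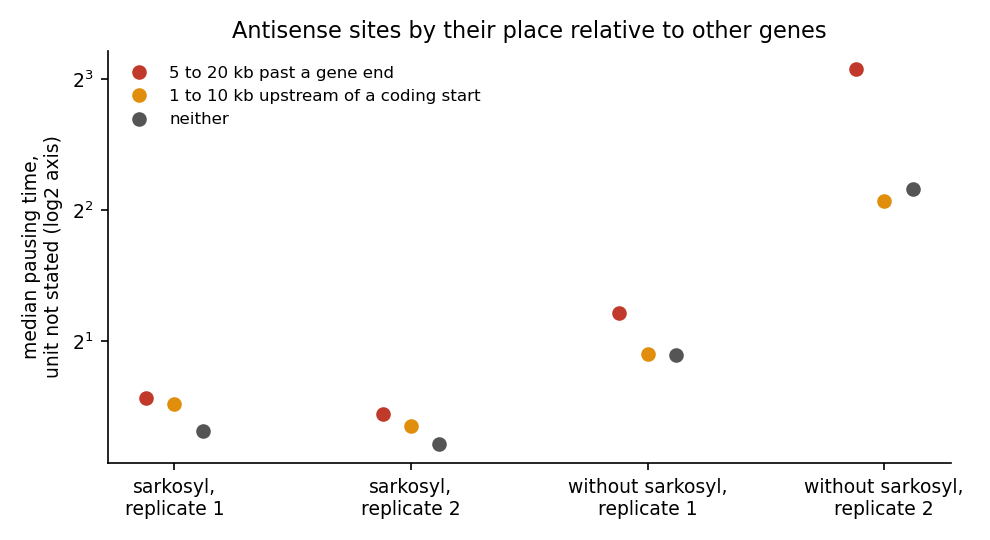
Median pausing time (log2 axis, unit not stated) of antisense sites in each series, by whether they lie 5 to 20 kb past a gene end of their strand, 1 to 10 kb upstream of a coding start of the other strand, or in neither place. Sites both past a gene end and upstream of a coding start are counted as past a gene end. Of these 3 groups, the one past gene ends has the highest median in all 4 series.

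In all 4 series, antisense sites had a site of the other strand close upstream more often than sense intron sites. Such a site within 500 bp was found for 11.0% and 6.01% of antisense sites with sarkosyl and for 7.11% and 6.75% without it, against 1.38%, 0.668%, 0.685% and 0.594% of sense intron sites. For promoter antisense sites, which by their place look back on a promoter, the shares were 44.8%, 34.5%, 36.1% and 25.1%. Intergenic sites had 7.92%, 5.50%, 6.78% and 4.30%, and all sites on chromosomes 1 to 22 had 17.4%, 11.2%, 9.35% and 6.49%, so the antisense share was below that of all sites in 3 of the 4 series. The antisense share exceeded that of sense introns by 7.48 ± 3.03 percentage points (SD, n = 2) with sarkosyl and 6.29 ± 0.20 without it, in 4 of 4 series (exact sign-flip p = 0.125). A pair that joins an antisense and a sense intron site counts for both classes. Sense intron sites were far more numerous, 5596 against 691 in sarkosyl replicate 1. Such pairs therefore give the larger class a lower share, so the test cannot show that the excess is a trait of antisense sites. How many pairs join the 2 classes was not counted. Antisense sites were also more clustered than sense intron sites: 26.6%, 18.0%, 21.9% and 19.6% had another site of their strand within 50 bp, against 11.6%, 9.31%, 8.71% and 7.75%. They were less clustered than intergenic sites, at 40.8%, 35.8%, 34.7% and 34.8%, and than all sites on chromosomes 1 to 22, at 35.7%, 30.5%, 24.0% and 21.7%. Promoter antisense sites had 41.1%, 34.7%, 28.8% and 22.4%. Over all series, 25.8% of positions were in 68 stretches of at least 5 positions with gaps of at most 2 kb.

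The same positions recurred between replicates more often than those of sense introns and less often than intergenic ones. The sarkosyl replicates shared 256 antisense positions, 37.0% of replicate 1 and 41.6% of replicate 2. The replicates without sarkosyl shared 221, which is 22.8% and 37.3%. For sense introns the shares were 26.6% and 20.3% with sarkosyl against 11.7% and 20.4% without it; for intergenic sites they were 44.4%, 49.1%, 27.2% and 41.1%. Each of these orders held in 4 of 4 series, but the 2 shares of a buffer count the same shared positions. The 4 values are thus not independent, so a sign-flip test over 4 series does not apply to them. Promoter antisense sites had 31.4%, 44.0%, 23.2% and 41.5%, and the antisense share was above theirs in 1 series and below it in 3. Over the 256 shared sites Spearman's rank correlation between replicates was 0.678 with sarkosyl, and over the 221 it was 0.468 without it; sites of 1 series share their libraries and clusters. The replicate correlations were 0.572 and 0.334 for sense intron, 0.734 and 0.529 for intergenic and 0.719 and 0.472 for promoter antisense sites. Between buffers Spearman's rank correlation ran from -0.025 to 0.053 in the 4 pairs of series, over 110 to 154 shared antisense sites. Over sites in all 4 series it ran from -0.092 to 0.085 for antisense and from -0.019 to 0.107 for sense intron sites. For intergenic sites it ran from 0.092 to 0.182 and for promoter antisense sites from 0.128 to 0.239. Of the 2166 positions, 824 were found only with sarkosyl, 1115 only without it and 227 in both buffers. Both buffers held 1068 of 32529 sense intron, 931 of 7028 intergenic and 1004 of 8401 promoter antisense positions. Listed in all 4 series were 70 of the 2166 antisense positions, beside 2967 of the 158141 positions of the study.

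As a class, antisense sites had a median 0.13 ± 0.04 below that of all sites on chromosomes 1 to 22 with sarkosyl and 0.32 ± 0.27 below it without (log2, SD, n = 2 series). The buffer difference in this level was 0.187 with an exact two-sided permutation p = 0.667, where 2 series against 2 cannot give less than 0.333. The 70 sites listed in all 4 series showed another order. Their median, relative to the 2967 sites of any class in all 4 series, was -0.31 and -0.33 with sarkosyl against 0.46 and 0.80 without it, so both buffers stood on opposite sides of 0 and did not overlap. The median of the single-site differences, sarkosyl minus sarkosyl-free, was -0.84 for the 70 and 0.22 for all 2967. A shorter centred time with sarkosyl was found for 53 of the 70 (75.7%), against 47.9% of 140 sense intron sites, 48.2% of 280 intergenic and 53.0% of 134 promoter antisense sites in all 4 series. The medians of the promoter antisense sites were also on opposite sides of 0, at -0.33 and -0.19 with sarkosyl against 0.025 and 0.030 without it. With 1 value for each of 60 hosts, 45 (75%) were shorter with sarkosyl. The difference in level between the buffers over these 70 sites was -0.944 (exact permutation p = 0.333, the smallest possible).

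**Figure D5:**
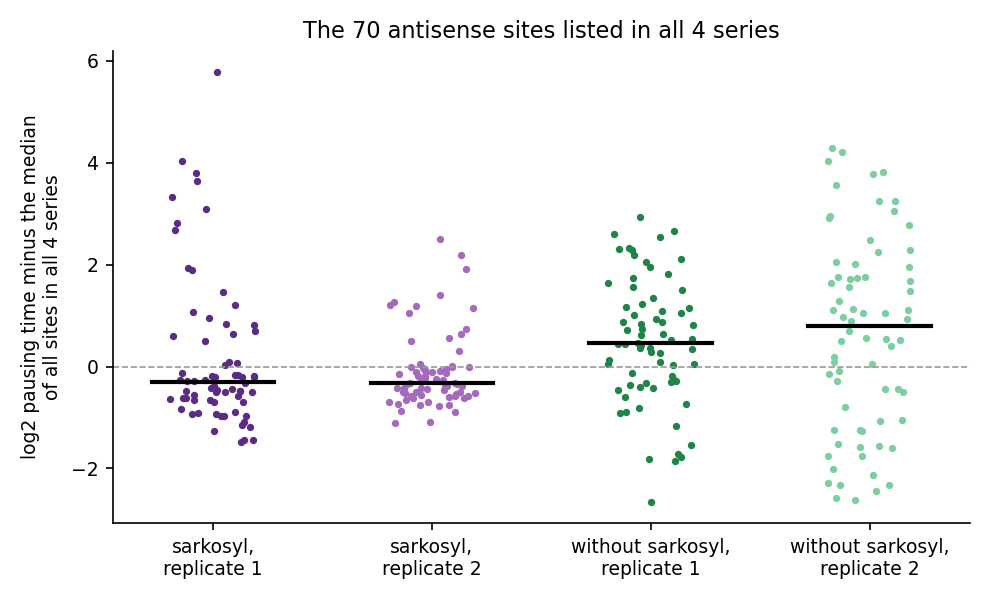
Log2 pausing time of the 70 antisense sites listed in all 4 series, minus the median of all 2967 such sites in that series; each point is a site, spread sideways at random, and black lines are medians. The medians are -0.31 and -0.33 with sarkosyl against 0.46 and 0.80 without it.

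No single antisense site passed the adjusted threshold of 0.05 between buffers in limma, nor did any of the 2967 sites tested (0%). At an unadjusted p under 0.05 limma gave 17 of 70 antisense sites (24.3%), close to the 23.2% of all sites. Of these, 8 were longer with sarkosyl, where 12% of all sites were, and 9 shorter, where 11.2% were. Adjusted limma p of the antisense sites ran from 0.155 to 0.994.

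The 10 antisense sites with the smallest unadjusted limma p lay on both sides. In SIPA1L3, position 38004567 had 0.504 and 0.696 with sarkosyl against 8 and 27.8 without it. The log2 difference was -4.52 ± 0.87 (SE; limma adjusted p = 0.155). A neighbouring SIPA1L3 site, 38004555, had 1.73 and 1.28 with sarkosyl against 8.26 and 26.3 without it. In ZBTB2, a zinc finger transcription factor, position 151389792 had 0.448 and 0.597 with sarkosyl against 5.08 and 6.94 without it. In LSM3, part of the U6 RNA-binding ring, position 14180819 had 0.552 and 0.978 against 4.37 and 10.8, and in ZNF512 position 27618110 had 0.864 and 1.22 against 6.54 and 11.8. These 5 sites were shorter in both sarkosyl series than in either series without it. The other 5 were longer in both. In HAVCR1, which encodes kidney injury molecule, position 157030487 had 20 and 4.78 with sarkosyl against 0.708 and 0.327 without it, a difference of 4.48 ± 1.01 (SE; limma adjusted p = 0.155). MLPH, a linker of melanosomes to motor proteins, had 15.2 and 7.19 against 0.209 and 1.47 at position 237523447. TRIM2, a ubiquitin ligase gene, had 10.3 and 2.93 against 0.583 and 0.485 at 153334409. The UNC45B site 35151216 had 66.7 and 5.78 against 0.977 and 1.05, and the C10orf53 site 49703051 had 12.2 and 2.14 against 0.698 and 0.262.

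The extremes were taken among sites listed in both replicates of a buffer, and their times are given for replicate 1 and then replicate 2. With sarkosyl the longest were in TMPRSS9, a membrane serine protease gene, with 58.8 and 16.9 at position 2414891 of chromosome 19, and the UNC45B sites 35151220 and 35151216. The shortest with sarkosyl were the ZBTB2 site above, a site of 0.576 and 0.589 at 31836885 of chromosome 11 in AL035078.4, and the UNC45B site 35151109. Without sarkosyl the longest were in ARID1A with 43.5 and 66.7 at 26698099, in SULF1, an extracellular sulfatase gene, with 62.5 and 25.6, and in CDH18, a cadherin gene, with 50 and 20. The shortest were in AXL, a receptor tyrosine kinase gene, with 0.186 and 0.176, in POU2F1, the gene of the octamer factor OCT1, with 0.317 and 0.165, and in SEC14L1 with 0.604 and 0.163. None of the 3 longest and 3 shortest sites without sarkosyl was listed in both sarkosyl series. Of all 221 antisense sites in both replicates without sarkosyl, only 70 were, so this is no trait of the extremes.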

How the data were processed

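Sites of RNA polymerase in HEK293 cells were taken from 4 tables that the authors deposited, 1 per buffer and replicate. Per the file headers, each row holds a pausing time and the mean, SD, quartiles, median and Monte Carlo error of a fitted value, in the authors' own unit. The deposited time equals 1 divided by the deposited median in all rows; that median, here called the rate, is rounded to 3 decimals, so long times take few distinct values. The model, its prior, the rule for calling sites and the unit of time are not given in the sources used here. Per the submitters' processing notes, cutadapt 1.14, HISAT2 2.1.0, SAMtools, bedtools and hg38 were used. The tables hold no read numbers, so no counting intervals are given. A table was matched to a buffer and replicate by its name and the sample titles. The sample labelled as a treatment was not analysed here.

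Sites were classed with GENCODE release 29 and times analysed as log2 with Python 3.11.15, numpy 2.4.6, pandas 2.3.3 and scipy 1.17.1. Comparison classes were introns of coding genes on the sense strand, positions outside genes of both strands, and sites up to 1000 bp upstream of coding starts on the opposite strand. The replicates are the 4 series. Classes were compared by the difference of medians within a series and an exact two-sided sign-flip test over the 4 series, with Benjamini-Hochberg adjustment over 19 contrasts, and buffers by an exact permutation test of 2 series against 2. The 19 contrasts include the shares of positions found in both replicates, whose values are not independent within a buffer. Nothing in the labels says whether replicates came from separate cultures, so p-values measure only the spread between these series, which may be technical. Single sites in all 4 series were tested with limma 3.58.1 in R 4.3.3, each series centred on its median over these 2967 sites, adjusted by Benjamini-Hochberg at a threshold of 0.05; the step was tested on simulated data. Figures were made with matplotlib 3.10.9. Promoter windows and tRNA genes come from RefSeq tables of GRCh38.p14.

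The members, lists and comparisons were chosen with earlier results of these data known. Named were the 10 hosts with most positions, the 10 sites in all 4 series with the smallest unadjusted limma p, the 3 longest and 3 shortest sites of each buffer among those in both replicates, and the top 3 hosts of each list; a few items that this rule names are not reported here. The sequences shown are some of those whose bases could be read, chosen after their values were seen. Alternatives covered summaries, distances, clustered or uncertain sites, hosts, sites in both replicates, centring, the replicate block and leaving out each series. All value columns were mapped to a group (0 were not).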

Additional observations from a re-analysis of the deposited data

Results flagged for a closer look

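The 70 antisense sites listed in all 4 series had medians on opposite sides of the level of all shared sites in the 2 buffers. Relative to the median of the 2967 sites in all 4 series, their median log2 pausing time was -0.31 in sarkosyl replicate 1 and -0.33 in sarkosyl replicate 2. Without sarkosyl it was 0.46 in replicate 1 and 0.80 in replicate 2. The exact permutation test of this difference has p = 0.333, the smallest that 2 series against 2 allow. The 12 of these sites that lie 5 to 20 kb past a gene end had -0.22 and -0.19 with sarkosyl and 0.70 and 0.66 without it, and the other 58 had -0.36, -0.35, 0.44 and 0.80, so both groups showed the same signs. Sense intron sites in all 4 series had 0.11, 0.18, 0.39 and 0.55, above 0 in every series, and intergenic sites had -0.18, -0.28, -0.28 and -0.18. Promoter antisense sites in all 4 series (134 sites) also lay on opposite sides, at -0.33 and -0.19 with sarkosyl against 0.025 and 0.030 without it. The difference between these classes in the buffer effect was not tested.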

How the results depend on the processing

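Antisense minus sense intron kept its negative mean under all 12 alternatives, between -0.64 (sites in both replicates) and -0.14 (more certain sites, those with the narrower quartile range of the rate), with exact p of 0.125 or 0.25, and leaving out each series gave -0.56 to -0.26. Antisense minus intergenic kept its positive mean under 10 alternatives, between 0.02 and 0.32, with exact p of 0.125 to 0.75, and leaving out each series gave 0.18 to 0.29. Its sign was not constant over series in some of them. Sarkosyl replicate 1 was negative over 5000 bp from starts (-0.12) and with sites in both replicates (-0.13). Both sarkosyl series were negative with isolated sites (-0.079 and -0.037), and sarkosyl-free replicate 2 was with more certain sites (-0.085). Antisense minus promoter antisense, 0.013 as a mean, reversed with isolated sites (-0.036), more certain sites (-0.13) and sites in both replicates (-0.077), and ran from -0.12 to 0.14 on leaving out each series; the lowest was without sarkosyl-free replicate 1. The buffer difference of the antisense level, 0.187, reversed with no centring (-1.38), with sites in both replicates (-0.059) and with sites in all 4 series (-0.94), the last chosen after seeing the data. It ran from -0.0072 (without sarkosyl-free replicate 2) to 0.38 on leaving out each series. The buffer difference of antisense minus sense intron, 0.250, ran from -0.056, without sarkosyl-free replicate 2, to 0.56. With no centring the difference is that of the tables' own levels; for the other changes the cause was not tested. The difference of sites past gene ends from other antisense sites had a mean between 0.25 and 0.56 under 9 alternatives, all chosen after seeing the data; with sites in both replicates sarkosyl-free replicate 2 changed sign (-0.20; exact p = 0.25).

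The 2166 positions became 1048 at over 5000 bp from starts, a stricter rule, 1527 at over 10 kb past gene ends and 2167 when positions were taken as counting from 0. Matches within 5 bp gave 305 sarkosyl positions of replicate 1 found again in place of 256, and 295 without sarkosyl in place of 221. In limma the 0 calls of 2967 sites, 0 of them antisense, stayed at 0 with no centring and with a trend and robust prior. Quantile normalization called 158 sites, 7 of them antisense. The replicate block called 161, 6 of them antisense; the replicate numbers name series of different buffers, and the deviations of same-numbered series correlated with r = 0.01 across sites, so they were not taken as pairs. Leaving out each series gave 0 to 1597 calls, and 0 to 36 among antisense sites, with the highest without sarkosyl-free replicate 1; without sarkosyl-free replicate 2 there were 660 and 13, the lone series being assumed to vary like the other buffer's. Removal of sites in repeats and the search for motifs around all sites were not run, since no genome sequence was used here; 218 of 2166 positions (10.1%) had 301 bases inside 1 exon, so a motif check over the class would be void. The precision of every comparison is limited by 4 series, and the depth is unknown.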
